A study of Homo sapiens with 24 samples.

Results

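The early response of HEK293 cells to MOTS-c was described across genes, from the 6 arrays of cells given the peptide for 4 h and the 6 arrays of cells given water for 4 h, which are 12 of the 24 arrays of the series. HEK293 is an established human embryonic kidney line, here grown in medium with serum. The treated cells received MOTS-c, a short peptide encoded in a mitochondrial ribosomal RNA gene, at 10 µM in the medium, and the control cells received water. RNA was read on Illumina bead arrays, 1 array per sample, from complementary RNA primed with oligo-dT. The other 12 arrays, of the same groups after 72 h, entered the normalization, the detection filter and the estimate of the spread. They also entered the choice of the probe that stands for a gene. Each difference at 4 h was taken between the normalized means of the 6 treated and 6 control arrays at 4 h. Whether the 6 replicates of a group were separate cultures is not stated in the sources used here. Each p-value therefore speaks of the spread among these arrays, and that spread may be technical.

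MOTS-c is known from cultured cells and mice to slow the folate and methionine cycles and de novo purine synthesis, which depends on folate, and to activate the energy-sensing kinase AMPK. AMPK in turn promotes glucose uptake and fatty acid oxidation and restrains lipid synthesis and mTOR signalling. The lists of genes described below follow these roles, together with the mitochondrial, stress and DNA repair genes of a dividing cell. They were chosen with earlier results of these data known, and many were picked for description after their values were seen.

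The 4 h response was small. Of 13283 genes tested, 1 fell at a Benjamini-Hochberg adjusted p under 0.05 in limma, which is 0.00753% of those tested, and 0 rose. When all 23931 kept probes were tested together 8 passed, and the 4 of these without a single gene were higher in treated cells. A fit of the 12 arrays at 4 h alone called 0 genes. The log2 differences, always given here as the mean of the MOTS-c arrays minus the mean of the control arrays on the normalized scale, ran from -0.64 to 0.63, so the largest was a 1.56-fold difference. No gene reached 2-fold, and 4 genes reached 1.5-fold (NDUFA5, DOK1, SNORD31 and VTRNA2-1). The median standard error (SE) was 0.086, and the 95% interval lay inside a 1.5-fold change in either direction for 98.7% of genes and reached past 2-fold for 2 genes. An unadjusted p under 0.05 was found for 1567 genes (11.8%), of which 732 had higher means (5.51%) and 835 lower means (6.29%) in treated cells. These shares are the background for the counts of list members below, and a gene counted only at this threshold is not called. The 6 treated values lay wholly apart from the 6 control values for 72 genes (0.542%), above them for 20 (0.151%) and below them for 52 (0.391%).

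**Figure D1:**
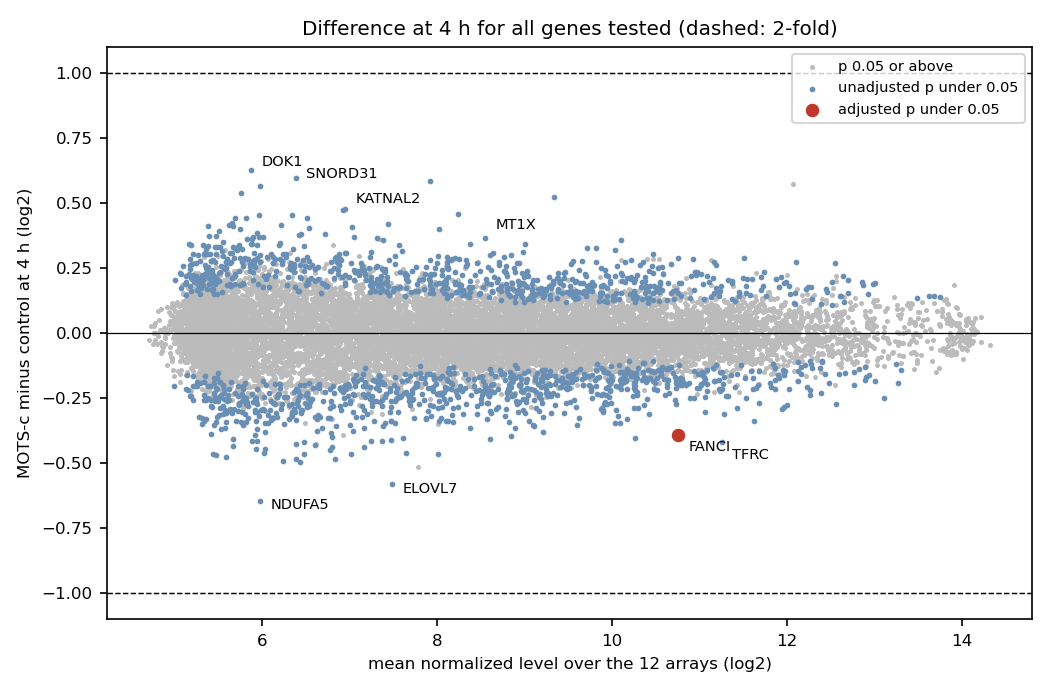
Difference at 4 h (log2, MOTS-c minus control) against the mean normalized level over the 12 arrays (log2) for 13283 genes, 1 point per gene. FANCI is the single gene at an adjusted p under 0.05, and no point reaches the dashed lines at 2-fold.

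The array-wide measures did not differ beyond the spread between arrays. Mean probe intensity was 516.5 ± 32.9 (SD, n = 6) on control arrays and 520.1 ± 72.7 on treated arrays (exact two-sided permutation test, p = 0.929), and the mean number of detected probes was 21362 and 21421 (exact p = 0.758). Pairs of arrays correlated from 0.992 to 0.996 within groups (median 0.993) and from 0.990 to 0.995 across groups (median 0.993). The first principal component of the 12 arrays held 21.2% of the variance and gave an exact p of 0.0866 between groups, the smallest of 7 array measures (adjusted 0.492 over the 7). That component went with array brightness before normalization (Pearson r = -0.62, permutation p = 0.0299, adjusted 0.0598 over 2 relations; Spearman rho = -0.66, permutation p = 0.0212, adjusted 0.0423). Without the 2 arrays farthest in brightness r was -0.50, and within groups it was -0.51 over the controls and -0.97 over the treated arrays. Of 9 embryonic kidney markers on the array, LHX1, WT1, EYA1, HOXD11, CDH2 and VIM were detected on all 12 arrays. PAX8 was detected on 0 and 2 others on some. Of 12 neuronal markers 10 were detected on all 12 arrays, and 6 of 7 tubule and 5 of 6 endothelial markers on 0. Some markers of other cell types were detected on all 12 arrays as well. They were the leukocyte markers CD14, CD68 and LCP1 (3 of 7) and the fibroblast markers COL1A1 and LUM (2 of 7). The hepatocyte marker ALB (1 of 6) and the keratinocyte and carcinoma markers EPCAM, CDH1 and KRT19 (3 of 5) were too. In the same order, 1, 3, 4 and 2 markers of these lists were detected on 0 arrays.

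**Figure D2:**
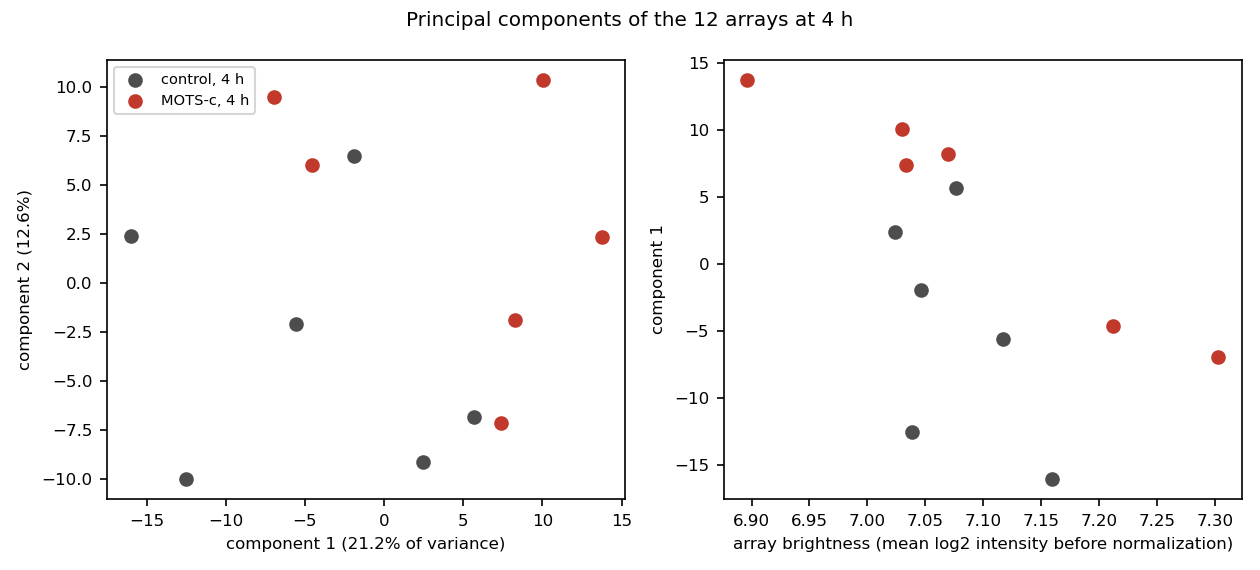
The 12 arrays at 4 h on the first 2 principal components (left; axes in component units) and the first component against the mean log2 intensity of each array before normalization (right). Control (grey) and MOTS-c (red) arrays overlap on both components, and the first component falls with brightness.

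FANCI fell. It encodes a subunit of the clamp that the Fanconi anaemia pathway loads onto DNA at interstrand crosslinks, and lies on chromosome 15 at 89243979 to 89317259 (GRCh38.p14). Its normalized log2 level in control cells was lowest at 10.83, with a median of 10.95 and a highest value of 11.10, and in treated cells it was 10.44 at the lowest, 10.52 at the median and 10.72 at the highest. All 6 treated arrays lay below all 6 control arrays. The difference was -0.39 (SE 0.065, 95% interval -0.53 to -0.26), a 1.31-fold lower level, with a limma adjusted p of 0.0329. As the cells were measured in bulk, fewer cells carrying a transcript and less of it per cell cannot be told apart.

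The size of the FANCI difference was steadier than its call. Over 25 other settings it stayed between -0.43 and -0.36, and the adjusted p ran from 0.00472 to 0.999. The fit of the 12 arrays alone called 0 genes and gave FANCI an adjusted p of 0.174. The use of all 24 arrays was settled with these outcomes known. The call was also lost under scaling to the array median (0.999), with array weights (0.0526) and with a replicate block (0.0653). Leaving out control replicate 1, 2 or 4, or treated replicate 3, 4 or 6, ended it as well, with adjusted p-values from 0.0769 to 0.143.

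FANCI was the one called member of its pathway. Of each list described here and below, the 3 members with the smallest p are named by rule, and those that complete a count were picked once their values were known. Of 27 measured genes of the Fanconi anaemia and crosslink repair list, 3 had lower and 2 higher means at an unadjusted p under 0.05, and the list's median difference was 0.05 (0.02 without treated replicate 5), against -0.0034 over all genes. Under median scaling 557 genes and not 1567 passed that threshold, and 33 of the 37 lists held fewer such members. FANCC, a subunit of the core ubiquitin ligase, differed by -0.25 (adjusted p 0.272), and FAAP24, which helps the core complex bind DNA, by 0.29 (0.287). The other members below that threshold were CENPS (0.18), part of the DNA-binding histone-fold complex, and the nuclease scaffold SLX4 (-0.15).

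Among genes detected on all 12 arrays, the next 9 by p of those lower in treated cells did not pass the adjusted threshold. TFRC, the transferrin receptor that brings iron into cells, had control levels of 11.36, 11.46 and 11.55 (lowest, median, highest) and treated levels of 10.92, 11.02 and 11.19. The groups did not overlap, and the difference was -0.42 (SE 0.077, adjusted p 0.0646), close to the FANCI difference in size. TFRC passed the threshold in 8 of 26 settings, with the reported one counted, and FANCI in 16.

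ZMIZ1, a coactivator related to the PIAS family, had levels of 9.52, 9.60 and 9.76 in control cells and 9.21, 9.27 and 9.46 in treated cells, again with no overlap. Its difference was -0.31 (adjusted p 0.069). TOPBP1, a scaffold of replication initiation and of the ATR checkpoint, had levels of 10.07, 10.18 and 10.29 against 9.77, 9.90 and 9.98. Those groups were apart as well, by -0.30 on average (adjusted p 0.093). NSMCE3, a subunit of the SMC5/6 complex, and the antisense transcript MORC2-AS1 were the other members of this set with no overlap, at -0.41 and -0.34 (adjusted p 0.106 for both).

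The other 4 overlapped between groups. LSM14B, an RNA-binding protein of stored messenger RNA, differed by -0.49 (adjusted p 0.093). ULK2, a kinase that starts autophagy, differed by -0.34, SAP30L, a subunit of a histone deacetylase complex, by -0.31, and the epithelial transcription factor GRHL3 by -0.50, each with an adjusted p of 0.106. GRHL3 had a further kept probe that gave -0.06, and SAP30L one that gave -0.12.

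Among the genes with higher means in treated cells that were detected on all 12 arrays, KATNAL2, a katanin-like protein of microtubule severing, came first by p. Its control levels were 6.54, 6.72 and 6.90 and its treated levels 7.02, 7.15 and 7.55, where the highest was treated replicate 1. The groups did not overlap, and the difference was 0.48 (SE 0.092, adjusted p 0.069), or 0.40 without that array. CNOT2, a subunit of the CCR4-NOT complex that removes poly(A) tails, had levels of 9.91, 10.12 and 10.18 against 10.31, 10.35 and 10.43. Its treated arrays were also all above the control arrays, by 0.28 on average (adjusted p 0.106).

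The 8 others overlapped between groups and had adjusted p-values from 0.106 to 0.156. AP1S1, a subunit of a clathrin adaptor, differed by 0.36, NUP35, a nuclear pore protein, by 0.31 (0.12 on a further probe), and the sorting nexin SNX12 by 0.31. COA4, which serves cytochrome c oxidase assembly, differed by 0.34, and SLC35D4 by 0.40. The pseudogene SBDSP1 differed by 0.33 (0.13 on a further probe), and its probe may also read its near-identical parent gene SBDS. The small nucleolar RNAs SNORA61 (0.46) and SNORD31 (0.59), which guide chemical marks on other RNAs, are usually not polyadenylated, and what their probes read after oligo-dT priming was not tested.

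The 3 largest differences each way included genes outside that ranking. NDUFA5, a matrix-arm subunit of complex I, had levels of 5.96, 6.26 and 6.65 in control cells and 5.27, 5.67 and 6.12 in treated cells. The groups overlapped at 1 array each, at a difference of -0.64 (SE 0.13, adjusted p 0.093), and the transcript was detected on all 6 control and 5 of 6 treated arrays. ELOVL7, an elongase of long fatty acids, differed by -0.58 (adjusted p 0.138). DOK1, an adaptor below tyrosine kinases, differed by 0.63 (adjusted p 0.213) with a treated SD of 0.48 against a control SD of 0.15. It was detected on 5 of 6 control and all 6 treated arrays, and its difference was 0.45 without treated replicate 3. The small RNA VTRNA2-1 differed by 0.59 (adjusted p 0.252), or 0.40 without control replicate 2, with a control SD of 0.53. What its probe read after oligo-dT priming was not tested.

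**Figure D3:**
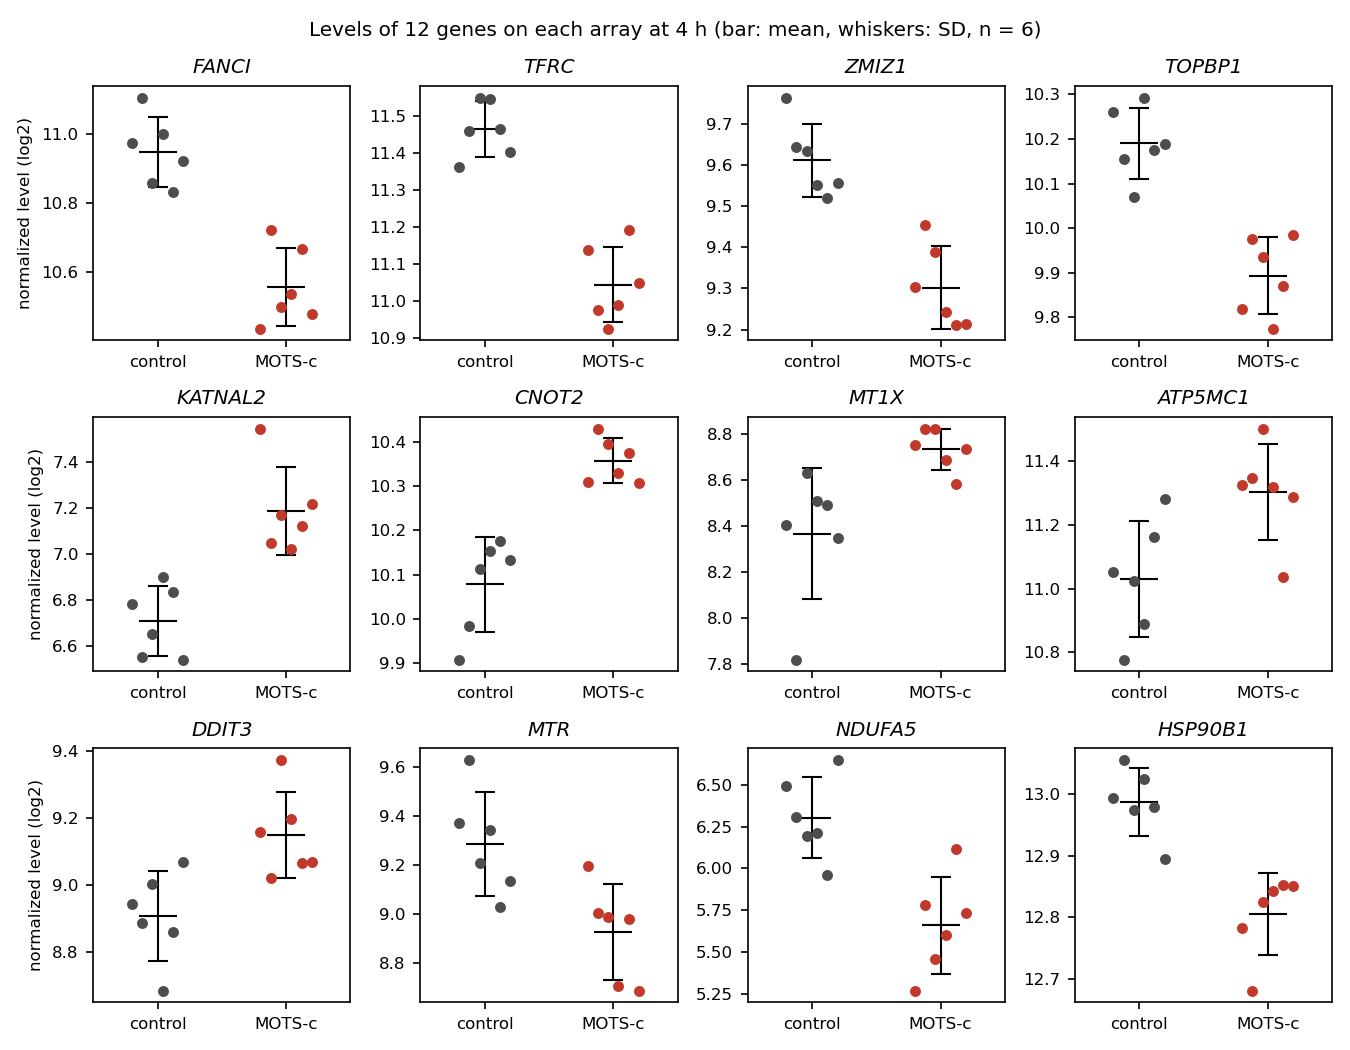
Normalized level (log2) of 12 genes on each of the 12 arrays at 4 h, with the group mean (bar) and SD (whiskers, n = 6); the vertical axes differ between genes and do not start at 0. FANCI, TFRC, ZMIZ1, TOPBP1 and HSP90B1 are lower, and KATNAL2 and CNOT2 higher, on every MOTS-c array than on any control array, whereas MT1X, ATP5MC1, DDIT3, MTR and NDUFA5 overlap.

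The folate and methionine cycles and purine synthesis held no called gene at 4 h. In the folate list 1 of 13 measured genes had an unadjusted p under 0.05, which was AMT of the glycine cleavage system at 0.28 (adjusted p 0.384). GGH, which trims polyglutamate from folates, differed by -0.20 (-0.40 on a further probe) and the mitochondrial folate enzyme MTHFD2 by 0.13. In the methionine and polyamine list 1 of 19 was lower and 1 higher. The lower was MTR, methionine synthase, which joins both cycles. It had control levels of 9.03, 9.27 and 9.63 and treated levels of 8.69, 8.98 and 9.20, overlapping, with a difference of -0.36 (SE 0.095, adjusted p 0.196). The higher was APIP, a methionine salvage enzyme, at 0.16, whose further probe gave -0.07, and ADI1 of the same salvage route differed by -0.19. Of 11 purine synthesis genes 1 was lower, PFAS at -0.15 (adjusted p 0.312), with PRPS2 at -0.13 (-0.07 on a further probe) and ADSL at 0.09 (0.05 without control replicate 1).

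AMPK and the genes downstream of it also held none. Of 11 genes of AMPK subunits and upstream kinases, 1 had an unadjusted p under 0.05. It was PRKAA2, a catalytic subunit, which had levels of 5.54, 5.95 and 6.26 in control cells and 5.27, 5.59 and 5.80 in treated cells. These overlapped, the difference was -0.34 (adjusted p 0.26), and 1 treated array did not detect it. CAMKK2, an upstream kinase, differed by -0.18, or by -0.09 without treated replicate 2 and -0.27 without treated replicate 4, and the LKB1 partner CAB39 by -0.10. Of 20 insulin and mTOR genes 1 was lower, RPTOR at -0.22 (adjusted p 0.407), the scaffold of mTORC1, with IRS2 at -0.15 and FOXO1 at -0.13. Of 17 mitochondrial biogenesis factors 2 were lower, the coactivator PPARGC1A at -0.20 and the mitochondrial DNA-binding protein SSBP1 at -0.19, while TFB2M differed by 0.14 (0.05 on a further probe).

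Glucose and lipid genes held no called gene either. Of 23 glycolysis and lactate genes 4 were higher and 2 lower at an unadjusted p under 0.05, where the 2 lower were the glucose transporters SLC2A3 (-0.21, adjusted p 0.237) and SLC2A1 (-0.14, 0.362). TPI1, the triose phosphate isomerase, differed by 0.20 (adjusted p 0.252), and ALDOC, PGK1 and TXNIP by 0.21, 0.18 and 0.19. Of these, TXNIP is a glucose-sensing arrestin and not a glycolytic enzyme. The median of this list was 0.05 (0.08 without treated replicate 3) and turned to -0.0041 under median scaling. Of 25 fatty acid and cholesterol synthesis genes 4 were lower and 0 higher, with a median of -0.03 that kept its sign in the 25 other settings (-0.06 without control replicate 5, -0.02 without treated replicate 6). These 4 were STARD4 (-0.35), CYP51A1 (-0.27), ACACA (-0.14) and SCD (-0.13), and 1 of the list was lower under median scaling. Fatty acid oxidation had 2 of 19 lower, ECI2 and ACSL1 (-0.22 for both), and 1 higher, ECI1 (0.23). Under median scaling 0 were lower and 1 higher.

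In each list of nuclear genes for the mitochondrial respiratory chain and ribosome, more members were higher than lower at an unadjusted p under 0.05. This held in the 25 other settings for ATP synthase, complexes II to IV and the mitochondrial ribosome, and in 21 of 25 for complex I, with equal counts in 3 and more lower in 1. In the ATP synthase list 5 of 18 measured genes (27.8%, against 5.51% of all genes) were higher and 0 lower, and the median was 0.06 (0.09 without control replicate 3). ATP5MC1, a subunit of the membrane ring, had levels of 10.78, 11.04 and 11.28 against 11.04, 11.32 and 11.50, overlapping, with a difference of 0.27 (SE 0.082, adjusted p 0.237). ATP5F1E of the central stalk differed by 0.22 and ATP5MG by 0.20, or by 0.14 and 0.12 without control replicate 2, and a further probe of ATP5MG gave -0.19. The other members counted were ATP5ME (0.27) and ATP5MC2 (0.17). The count of 5 became 1 under median scaling, and the median was then 0.01. ATP5MC1, ATP5F1E and ATP5MG span 3085, 6861 and 8242 bases, and of the 3318 shortest genes tested 7.81% were higher. No background matched for gene length was used.

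Complexes II to IV had 3 of 22 higher and 1 lower, with a median of 0.08 (0.05 without control replicate 2). The higher were UQCR10 of complex III (0.24, and 0.06 and 0.15 on further probes) and COX6B1 (0.14) and COX6A1 (0.13) of complex IV, and the lower was COX5A (-0.14). Complex I had 4 of 35 higher and 2 lower and a median of 0.05 (0.02 without treated replicate 3), with NDUFB7 at 0.23 (adjusted p 0.228) and NDUFB8 at 0.15 beside NDUFA5 above. NDUFA3 (0.27), NDUFA1 (0.19) and NDUFS1 (-0.28) were the others counted. Mitochondrial ribosomal proteins had 10 of 77 higher (13%) and 3 lower, led by MRPL54 (0.27), MRPL33 (0.22, and 0.10 on a further probe) and MRPS24 (0.18), and a median of 0.04. The 3 lower were MRPL57 (-0.24), MRPL15 (-0.22) and MRPL19 (-0.18). Under median scaling the 10 and 3 became 3 and 1, and the medians of these 4 lists stayed above 0 in all 25 other settings. Control replicate 2 was the lowest array for MRPL54 and MRPL33. Of all arrays left out singly, it gave the smallest difference for ATP5MC1, ATP5F1E, ATP5MG, NDUFB7, NDUFB8, COX6A1, COX6B1 and MRPL33. For MRPL54, MRPS24, UQCR10 and NDUFA5 another array did. Cytosolic ribosomal proteins had 5 of 68 higher and 2 lower, with a median of 0.01 that turned to -0.07 under median scaling. The 5 were RPS21 (0.29), RPS7 (0.26), RPL29 (0.19), RPL34 (0.18) and RPL12 (0.14) and the 2 were RPL37 (-0.20) and RPS23 (-0.16).

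**Figure D4:**
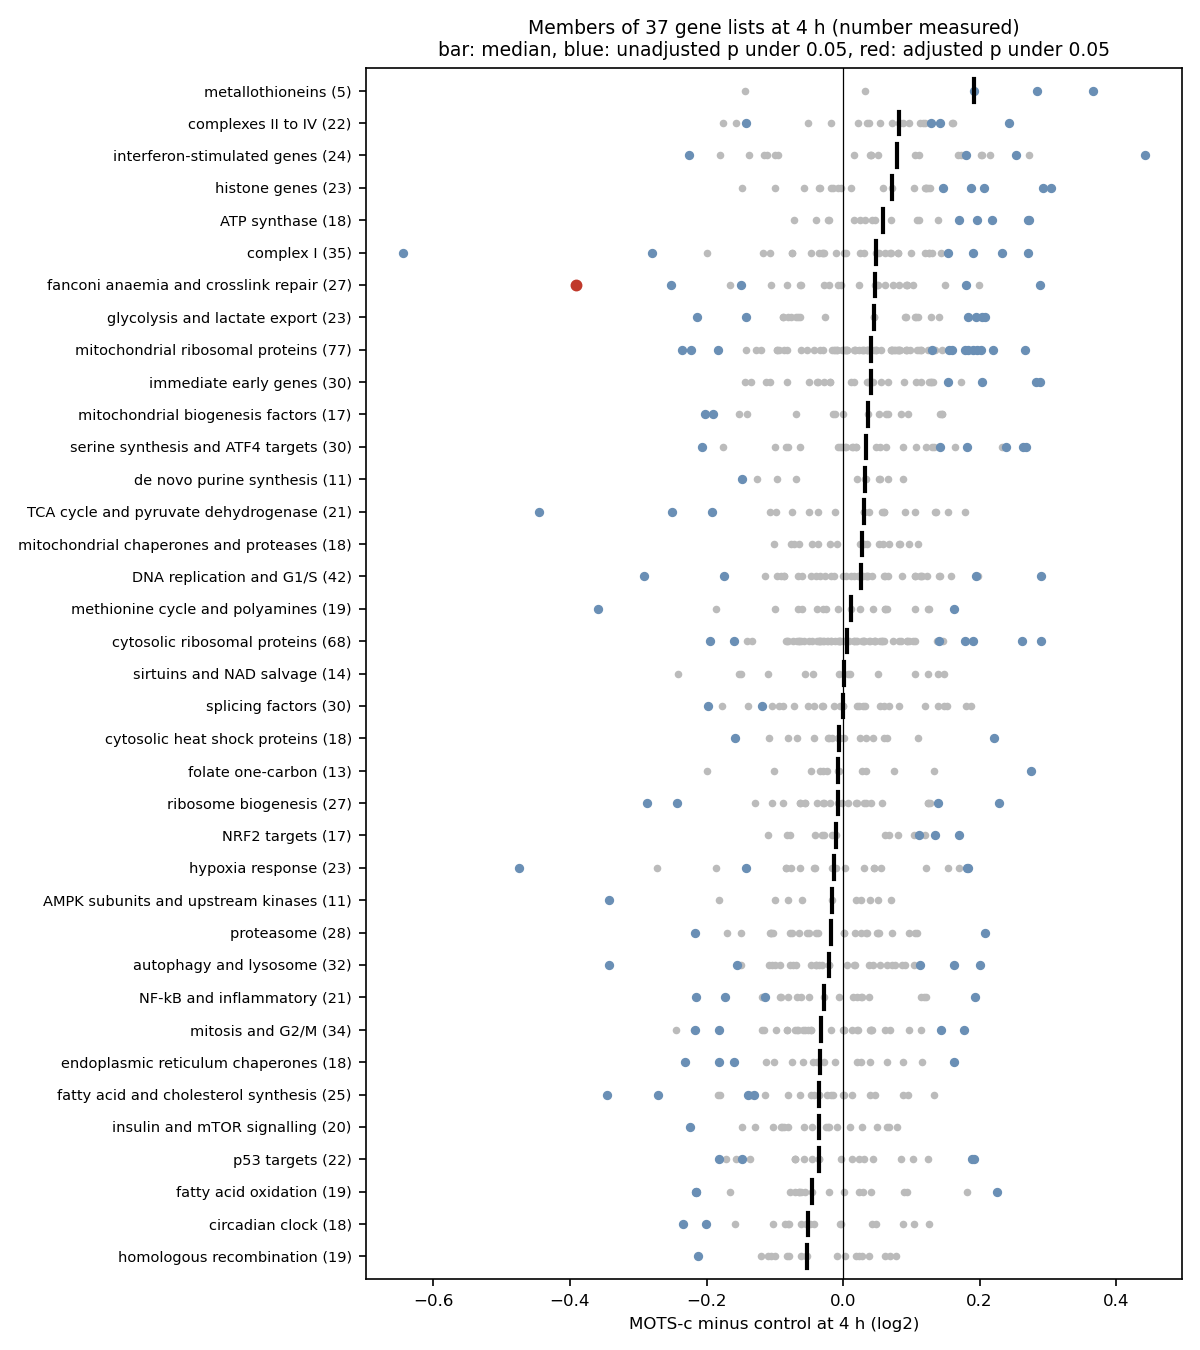
Difference at 4 h (log2) for every measured member of 37 gene lists, 1 list per line with its number of members, ordered by the list median (black bar). Blue points have an unadjusted p under 0.05, and the red point, FANCI, is the single member called.

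The list of metallothioneins, small proteins that bind zinc and copper, and their activator MTF1 had the highest median of the 37, at 0.19 over 5 measured members. Over the 25 other settings that median ran from 0.05, with no detection filter, to 0.24, and over the 4 metallothionein genes alone it was 0.16. MT1X had control levels of 7.82, 8.45 and 8.63 and treated levels of 8.58, 8.74 and 8.82. The groups overlapped at 1 control array, the lowest value was control replicate 2, and the difference was 0.37 (SE 0.099, adjusted p 0.213), or 0.26 without that replicate. MT2A differed by 0.28 (adjusted p 0.298), or 0.18 without it. MTF1, the zinc-sensing factor that activates metallothionein genes, differed by 0.19 (adjusted p 0.365), MT1F by 0.03 and MT1E by -0.14. MT1F and MT1E fell outside the rule for named genes and complete the list.

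The sequences before the starts of MT2A and MT1X are shown because metallothionein promoters carry metal response elements, the sites MTF1 binds. They are the 250 bases upstream of each start in RefSeq on GRCh38.p14, chr16:56608334-56608583 for MT2A and chr16:56682220-56682469 for MT1X, both on the plus strand and 5′ to 3′. Capitals mark each match to the element's 7-base core, TGCACNC or TGCGCNC, on either strand.
MT2A: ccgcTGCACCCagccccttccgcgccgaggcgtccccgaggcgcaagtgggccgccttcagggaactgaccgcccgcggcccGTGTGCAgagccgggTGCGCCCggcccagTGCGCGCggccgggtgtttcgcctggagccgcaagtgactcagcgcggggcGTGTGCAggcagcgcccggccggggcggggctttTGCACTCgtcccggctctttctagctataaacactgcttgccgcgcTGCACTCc
MT1X: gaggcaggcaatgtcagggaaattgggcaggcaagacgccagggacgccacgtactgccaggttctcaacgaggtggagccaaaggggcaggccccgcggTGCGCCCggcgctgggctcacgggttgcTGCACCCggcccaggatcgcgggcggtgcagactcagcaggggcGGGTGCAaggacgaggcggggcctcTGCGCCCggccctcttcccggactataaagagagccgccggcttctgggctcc
MT2A held 7 cores and MT1X 4, and no matches overlapped. Of 35116 RefSeq windows of the same length, 24.8% held at least 1 core, 0.37% at least 4 and 0.0313% at least 7. A match is a description of the letters and not of a site in use. The windows of MT1F and MT1E, the other measured metallothionein genes, are not shown. Whether core counts go with the differences at 4 h was not tested. Promoter windows were matched for 71 of the 84 genes named by the rule.

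Stress and growth-signal genes held no called gene. Of 30 serine synthesis and ATF4 target genes 5 were higher and 1 lower. DDIT3, the transcription factor CHOP, had levels of 8.69, 8.92 and 9.07 against 9.02, 9.11 and 9.37, which overlapped, and a difference of 0.24 (SE 0.071, adjusted p 0.237). XPOT, the tRNA exporter, differed by 0.27 and SESN2, an inhibitor of mTORC1, by 0.26. CEBPB (0.14), DDIT4 (0.18) and SLC38A2 (-0.21) were the other members counted. The median of the list was 0.03, with 0.0089 without treated replicate 1 and 0.07 without treated replicate 3, and turned to -0.0082 under median scaling.

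Endoplasmic reticulum chaperones had 3 of 18 lower and 1 higher. HSP90B1, the abundant chaperone GRP94, had control levels of 12.89, 12.99 and 13.06 and treated levels of 12.68, 12.83 and 12.85. Those groups did not overlap, and the difference was -0.18 (SE 0.052, adjusted p 0.225). HSPA5, the chaperone BiP, differed by -0.16, DNAJC3 by -0.23 and EDEM1, which sends misfolded proteins to degradation, by 0.16.

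Immediate early genes had 4 of 30 higher and 0 lower. JUNB differed by 0.29, SPRY4, a brake on receptor kinases, by 0.28, the phosphatase DUSP1 by 0.15 and DUSP4 by 0.20. SPRY4 was detected on 1 of 6 control and 5 of 6 treated arrays, so most of its control values were not above background, and JUNB on 5 and 6. Interferon-stimulated genes had 3 of 24 higher and 1 lower, with IFI27 at 0.44 (adjusted p 0.228), IFIT3 at 0.18 (0.11 without treated replicate 2, 0.32 on a further probe), IRF9 at 0.25 and IRF1 at -0.22. Inflammatory genes had 3 of 21 lower and 1 higher. NFKBIE and NFKBIB, inhibitors of NF-kB, differed by -0.17 and -0.22, where a further probe of NFKBIB gave 0.09, and the chemokine CCL2 differed by 0.19.

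Among growth genes, 5 of 23 histone genes were higher (21.7%) and 0 lower, with a median of 0.07 (0.04 without control replicate 1) that stayed above 0 in the 25 other settings. Under median scaling 2 were higher. H2BC4 differed by 0.30, H4C14 by 0.29 and H2AC18 by 0.21 (0.09 on a further probe, 0.14 without control replicate 2), with H4C8 at 0.19 and H2BC21 at 0.15. Histone genes are near copies of each other, so a probe may read more than 1 of them. As for the small nucleolar RNAs above, what these probes read after oligo-dT priming was not tested. Of 42 DNA replication genes 2 were lower and 2 higher (4.76% each way, against 6.29% and 5.51% of all genes). The lower were CHAF1A, a histone chaperone, at -0.29 (adjusted p 0.154), and POLA1, the catalytic subunit of polymerase alpha. POLA1 differed by -0.17 (0.228), with -0.10 on a further probe. Both had all treated arrays below all control arrays, which held for 0.391% of all genes. PRIM1, the primase that works beside POLA1, was higher by 0.19 (0.06 on a further probe) and the checkpoint adaptor CLSPN by 0.29. Autophagy genes had 3 of 32 higher and 2 lower, or 0 and 1 under median scaling, and a median of -0.02 that changed sign in 4 of 25 settings. ULK2 led the lower, beside WIPI2 (-0.16). Of the higher, ATG4B differed by 0.16, and MAP1LC3B, the lipidated marker of autophagosomes, differed by 0.20. GABARAPL2 differed by 0.11 on its brightest probe, by -0.37 on a dimmer one, and by -0.13 when its probes were averaged.

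The small differences went with gene length. The Spearman correlation of the 4 h difference with genomic length was -0.17 over 13272 genes, which are not independent replicates and share the same 12 arrays. Among the 3318 shortest genes, with a median length of 4790 bases, 7.81% were higher and 3.86% lower at an unadjusted p under 0.05, and the median difference was 0.02. Among the 3318 longest, with a median of 131004 bases, 3.89% were higher and 9.01% lower, and the median difference was -0.03. The correlation was below 0 in each of 25 other settings, between -0.20 and -0.13. At 72 h it was 0.24, on the other 12 arrays. What sets this relation, and whether the counts of the lists above go with gene length, was not tested.

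The early differences were compared with those at 72 h, where 45.1% of all genes passed the adjusted threshold, 2612 in the direction of their 4 h difference and 3372 in the opposite direction. Of the 732 genes higher at 4 h at an unadjusted p under 0.05, 42.9% were called at 72 h, 130 in the same and 184 in the opposite direction. Of the 835 lower genes 50.9% were called at 72 h, 128 in the same and 297 in the opposite direction. Over all genes the differences at the 2 times correlated at a Spearman rho of -0.12, a weak relation across genes that share each time's arrays. FANCI was higher in treated cells at 72 h, by 0.19 (adjusted p 0.0193). ULK2 (0.51), MORC2-AS1 (0.54) and TOPBP1 (0.24) also rose at 72 h, and COA4 (-0.48), SLC35D4 (-0.54) and SBDSP1 (-0.40) fell. SNORA61 kept its direction and rose at 72 h, by 0.28 (adjusted p 0.0345). MT1X (-0.65), MT2A (-0.50) and DDIT3 (-0.78) fell.

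The difference between the 2 effects (72 h minus 4 h) passed the adjusted threshold for 8 of the 10 leading higher genes and 9 of the 10 leading lower genes, against 34% of all genes. Those genes were chosen by the 4 h values that enter this test, so these counts are a description. The interaction was 0.58 for FANCI (adjusted p 2.54e-05). For AP1S1 (-0.26, adjusted p 0.072), SNORA61 (-0.17, 0.416) and SAP30L (0.23, 0.0685) it did not pass.

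**Figure D5:**
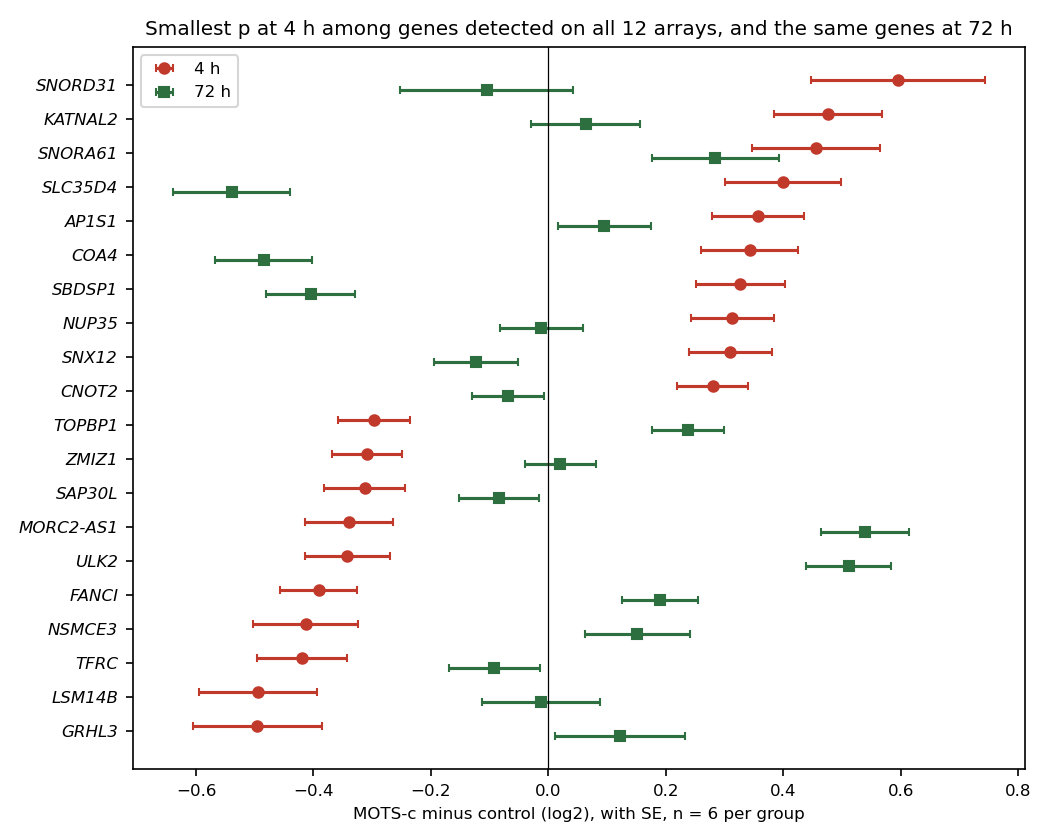
Difference at 4 h (red circles) and at 72 h (green squares), log2 with SE (n = 6 per group), for the 10 genes each way with the smallest p at 4 h among those detected on all 12 arrays. Only FANCI passed the adjusted threshold at 4 h, and 30% of the higher and 30% of the lower genes kept their sign at 72 h, against 45.9% of all genes.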

How the data were processed

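RNA of 24 HEK293 samples was read on bead arrays, and per the submitters' processing notes GenomeStudio 2011.1 was used. The deposited table gives each probe's mean intensity, not normalized, for 47323 probes and, beside it, a detection p-value against negative controls. A deposited score table was recomputed from the log10 intensities as each array's Z score (largest difference 5e-10) and was used as an alternative. No column lacked a sample.

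Intensities were normalized with neqc of limma 3.58.1 in R 4.3.3 (offset 16), giving log2 values. Kept probes (23931) had a detection p below 0.05 on 6 or more of the 24 arrays, and 17873 had 1 gene (13283 genes in all) and 6058 did not. The probe brightest on average over the 24 arrays stood for a gene, and 30074 of 30121 annotated probes matched RefSeq. No 2 arrays were the same, with equal values at no more than 0.372% of probes. Bead arrays hold no counts, so precision is limited by the number of arrays.

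One mean for each of 4 groups was fitted in limma (20 residual degrees of freedom, 6.43 more from the prior), and tests were two-sided with Benjamini-Hochberg adjustment over all genes. The members, gene lists and settings were chosen with earlier results of these data known, and 21 of the 37 lists were picked for description after their values were seen. Named genes are those called, the 10 with the smallest p each way among genes detected on all 12 arrays, the 3 with the largest difference each way, and the 3 smallest p of each list described. Others complete a count and were picked with their values known. Same-numbered arrays deviated with correlations from -0.23 to 0.0934 and 0 of 6 matched best. No pairing by number was thus seen, though so few values cannot exclude one. Figures used Python 3.11.15 and matplotlib 3.10.9. Other settings covered normalization, filters, probes, weights, brightness, a block, the prior, thresholds and each array left out.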

Additional observations from a re-analysis of the deposited data

Results flagged for a closer look

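In 182 groups of 6 values checked, over the 84 named genes and the array measures, 9 held an array that stood far from the other 5, where chance alone marks about 1 in 20 groups. Control replicate 2 had the lowest log2 level of MRPL54 (10.31), MRPL33 (12.19) and MT1X (7.82). Treated replicate 1 had the highest level of KATNAL2 (7.55) and IRF1 (9.22). SNX12 was highest in control replicate 4 (7.31), HSPA5 lowest in control replicate 1 (9.46), PRPS2 lowest in treated replicate 3 (10.62) and NDUFB7 lowest in treated replicate 5 (11.71).

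For 55 named genes the difference at 72 h minus the difference at 4 h passed the interaction test (limma, Benjamini-Hochberg adjusted p under 0.05), and since most were named for their 4 h values these are given as values only, on the log2 scale. It was above 0 for ELOVL7 (1.01), MORC2-AS1 (0.88), NDUFA5 (0.87), ULK2 (0.85), SSBP1 (0.68), GRHL3 (0.62), FANCI (0.58), NSMCE3 (0.56), SLC2A1 (0.56), NFKBIB (0.54), TOPBP1 (0.53), GGH (0.53), POLA1 (0.51), LSM14B (0.48) and H2AC18 (0.42). It was smaller and above 0 for PPARGC1A (0.41), RPTOR (0.40), IRS2 (0.40), FANCC (0.38), ZMIZ1 (0.33), TFRC (0.33), CAB39 (0.29), NFKBIE (0.28), FOXO1 (0.27), SLC2A3 (0.24), HSP90B1 (0.23) and NDUFB8 (0.21). It was below 0 for DDIT3 (-1.02), MT1X (-1.02), SLC35D4 (-0.94), COA4 (-0.83), MRPL54 (-0.82), MT2A (-0.79), IFI27 (-0.75), IFIT3 (-0.75), SBDSP1 (-0.73), JUNB (-0.71), SNORD31 (-0.70), DUSP1 (-0.70), CCL2 (-0.66) and FAAP24 (-0.59). It was nearer to 0 from below for MRPS24 (-0.57), SPRY4 (-0.54), HSPA5 (-0.52), SNX12 (-0.43), PRIM1 (-0.42), KATNAL2 (-0.41), UQCR10 (-0.35), CNOT2 (-0.35), NDUFB7 (-0.35), NUP35 (-0.33), MTF1 (-0.31), MRPL33 (-0.30), TFB2M (-0.29) and COX6A1 (-0.25).

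When all 23931 kept probes were tested together, 8 passed the adjusted threshold, and 4 of these had no single gene in the annotation and entered no comparison above. Their differences at 4 h were 0.40, 0.43, 0.56 and 0.40 on the log2 scale, all higher in treated cells, and the lowest adjusted p was 0.0345. Of the 6058 kept probes without a gene, 761 (12.6%) had an unadjusted p under 0.05, against 11.8% of genes.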

How the results depend on the processing

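Instead of 1, 0 genes were called under median scaling (557 instead of 1567 at an unadjusted p under 0.05, 279 higher and 278 lower), with the 12 arrays alone (1356 unadjusted), with array weights (1468) and with the replicate block (1547); quantile normalization without background correction, the deposited scores, every probe and a trended, robust prior gave 2 (both lower), stricter detection 4, an adjusted p under 0.1 gave 7, and brightness as a covariate 33 (8 higher, 25 lower). Leaving out 1 array gave from 0 to 15 calls and from 1188 to 1749 genes at an unadjusted p under 0.05. There were 0 calls without control replicate 1, 2 or 4 or treated replicate 3 or 4, 15 without treated replicate 1, 9 without control replicate 5, 3 without treated replicate 5 and 2 without control replicate 6. With the deposited scores the split was 817 higher and 646 lower, against 732 and 835. No pairing of arrays by replicate number was seen, and the cause of these shifts was not tested. Of 84 named genes 83 kept their direction in every setting, and GABARAPL2 reversed to -0.13 with its probes averaged. Over 2087 values of named genes, 40 newly passed the adjusted threshold, and 10, all of FANCI, no longer did. Of 37 list medians 15 never changed sign. Dim probes, such as those of NDUFA5 and SPRY4, limit what can be seen near background.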

Other observations

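Several further gene lists held no called gene at 4 h. Their members below an unadjusted p of 0.05, named after their values were seen, are given as log2 differences. Over all genes 5.51% were higher and 6.29% lower at that threshold. Of 21 genes of the tricarboxylic acid cycle and pyruvate dehydrogenase 3 were lower and 0 higher. They were PDP1 (-0.44), which switches pyruvate dehydrogenase on, its kinase PDK2 (-0.19) and pyruvate carboxylase, PC (-0.25). Under median scaling 1 was lower and 0 higher. Of 18 clock genes 2 were lower, CLOCK (-0.24) and its repressor BHLHE41 (-0.20). Of 23 hypoxia genes ANKRD37 was lower by the most (-0.48), beside SLC2A1, while PGK1 and DDIT4 were higher. Of 27 ribosome biogenesis genes NOP58 (-0.29) and LYAR (-0.24) were lower, and TSR1 (0.23) and WDR12 (0.14) higher. That is 7.41% each way, near the shares of all genes.

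Of 34 mitosis genes CENPF (-0.22) and the kinesin KIF11 (-0.18) were lower, and HMMR (0.18) and PTTG1 (0.14) higher. These make 5.88% each way, about the shares of all genes. Of 22 p53 targets GADD45A (-0.18) and AEN (-0.15) were lower, and TIGAR and TP53INP1 (0.19 for both) higher. Of 17 NRF2 targets KEAP1 (0.17), FTL (0.13) and TALDO1 (0.11) were higher and 0 lower. Sirtuin and NAD salvage genes (14) and mitochondrial chaperones and proteases (18) had 0 members below that threshold.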
